A study of Homo sapiens with 6 samples.

Results

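The cyclin-dependent kinase (CDK) inhibitors and the retinoblastoma (RB) pocket proteins were followed at the mRNA level in PC3 cells after silencing of Mic60, the product of IMMT. The 10 genes were chosen by name: the CIP/KIP inhibitors CDKN1A, CDKN1B and CDKN1C, the INK4 inhibitors CDKN2A, CDKN2B, CDKN2C and CDKN2D, and the pocket protein genes RB1, RBL1 and RBL2. All 10 were found among the 57736 Ensembl genes of the deposited table, and all 10 passed the filter on low values, which asked for 10 or more counts in 3 or more of the 6 libraries. PC3 is a human prostate cancer cell line. It carried a control siRNA (siCTRL, labelled Mic60 WT, n = 3) or a Mic60 siRNA (siMic60, labelled Mic60 KO, n = 3), and RNA was read with the QuantSeq 3′ kit, which counts transcripts near their polyadenylated end, so a count does not grow with transcript length. The study's supplement describes its replicates in general as independent and biological, without naming these libraries. The p-values set the difference between groups against the spread among the 3 libraries of each group, which the test partly pools over genes. The time after transfection of the PC3 cells and the number of Mic60 siRNAs used are not known here, and the silencing rests on 1 cell line.

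CDK inhibitors restrain the kinases that drive a cell from G1 into S phase. INK4 proteins bind CDK4 and CDK6 and keep D-type cyclins from activating them, whereas CIP/KIP proteins bind cyclin-CDK complexes, above all those of CDK2, and can also help cyclin D-CDK4 complexes to assemble. Active kinases phosphorylate RB1, RBL1 and RBL2, which in their unphosphorylated form hold E2F factors and repress genes of DNA replication.

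Promoters are shown for 3 members: RBL1, the only member found to hold an E2F word, CDKN1A, the member with the largest increase, and CDKN2B, the member with the largest decrease. The sequences come from RefSeq on the GRCh38.p14 build and cover the 250 bases before the listed transcript start, written 5′ to 3′ on the strand of the gene. In the RBL1 promoter (chr20:37095998-37096247, minus strand) capitals mark the E2F words TTTCGCGC and TTTGGCGC. In the CDKN1A (chr6:36678464-36678713, plus strand) and CDKN2B (chr9:22009306-22009555, minus strand) promoters capitals mark the GC box word GGGCGG, read on either strand.
RBL1: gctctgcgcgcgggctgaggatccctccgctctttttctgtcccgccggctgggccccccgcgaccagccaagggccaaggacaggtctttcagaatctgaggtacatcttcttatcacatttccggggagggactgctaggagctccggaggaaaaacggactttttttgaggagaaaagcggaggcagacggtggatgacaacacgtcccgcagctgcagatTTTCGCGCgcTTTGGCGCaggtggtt
CDKN1A: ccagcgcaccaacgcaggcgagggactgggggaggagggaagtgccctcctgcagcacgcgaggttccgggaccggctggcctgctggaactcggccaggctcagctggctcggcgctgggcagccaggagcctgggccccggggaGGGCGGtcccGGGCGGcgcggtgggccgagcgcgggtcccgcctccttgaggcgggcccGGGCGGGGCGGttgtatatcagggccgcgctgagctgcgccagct
CDKN2B: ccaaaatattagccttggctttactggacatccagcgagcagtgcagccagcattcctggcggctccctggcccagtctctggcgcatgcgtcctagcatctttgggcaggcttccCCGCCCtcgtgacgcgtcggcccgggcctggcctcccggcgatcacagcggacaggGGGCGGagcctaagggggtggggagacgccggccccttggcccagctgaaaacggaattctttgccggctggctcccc
Both E2F words of RBL1 lie on the strand of the gene, TTTCGCGC from 26 to 19 and TTTGGCGC from 16 to 9 bases before the start, without overlap. RefSeq promoters were at hand for 9 of the 10 members (13 windows, from 250 bases before to 50 bases after a start), all but CDKN1C, and the RB1 window lies at an internal start. An E2F word was found in 1 of the 13 windows, that of RBL1, and in 1.15% of all 35116 promoter windows on either strand, and 0.037% of all windows hold at least 2 matches. The GC box word was found in 8 of the 13 member windows and in 45.0% of all windows. CDKN1A held 4 matches, of which the last 2 share 1 base, and the CDKN2C windows held 0, 6 and 1. RBL1, which also rose, held 0, as did the internal RB1 window. Of the members that fell, CDKN2B held 2 and CDKN2D held 3. Matches were thus found among members that rose and members that fell, and a link to the changes was not tested. These matches describe letters and not bound sites.

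IMMT (ENSG00000132305) was read first as a check of the labels. Its levels were 88.9, 91.2 and 90.4 CPM (counts scaled to the library's total, here after TMM normalization) in siCTRL and 5.83, 7.34 and 8.53 CPM in siMic60 libraries, so that silencing left 8.12% of the control level. Totals ran from 6644495 to 8779877 counts per library. The chi-square between libraries of 1 group was 3.54 to 13.5 per degree of freedom, and 45.2 to 69.0 between libraries of different groups. KLK3, a prostate gene known to be off in PC3 cells, was at 0 counts in every library. All 5 epithelial markers were measured, and their sum was 1501 to 2081 CPM in siCTRL and 1081 to 1110 CPM in siMic60 libraries. KRT8 rose, KRT18, KRT19 and EPCAM fell, and CDH1 did not pass. Leukocyte markers (5 listed) summed to at most 1.48 CPM in any library, with CD3E, MS4A1 and NKG7 at 0. The 2 endothelial markers that matched the table, VWF and CDH5, were at 0. Fibroblast markers (5 listed) summed to 277 to 371 CPM in siCTRL and 46.6 to 65.8 CPM in siMic60 libraries, nearly all of it COL1A1, while DCN was at 0.

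After silencing of Mic60 the family moved in both directions. CDKN1A, CDKN2C, RB1 and RBL1 rose, CDKN1C, CDKN2B and CDKN2D fell, and CDKN1B, CDKN2A and RBL2 did not pass the test. The 7 members called compare with 35.5% of all 14653 genes tested that were called in either direction, 17.7% higher and 17.9% lower, at an adjusted p under 0.05 from edgeR's quasi-likelihood test with Benjamini-Hochberg adjustment over all genes. The share of members called was thus above that of all genes, a description with no test. For 7 of the 10 the siMic60 libraries all lay on one side of the siCTRL libraries, as for 47.9% of all genes tested. The median log2 fold change of the members was 0.26, against 0.0022 for all genes tested. In a bulk sample, fewer cells that express a gene and less of its RNA in each cell cannot be told apart.

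**Figure D1:**
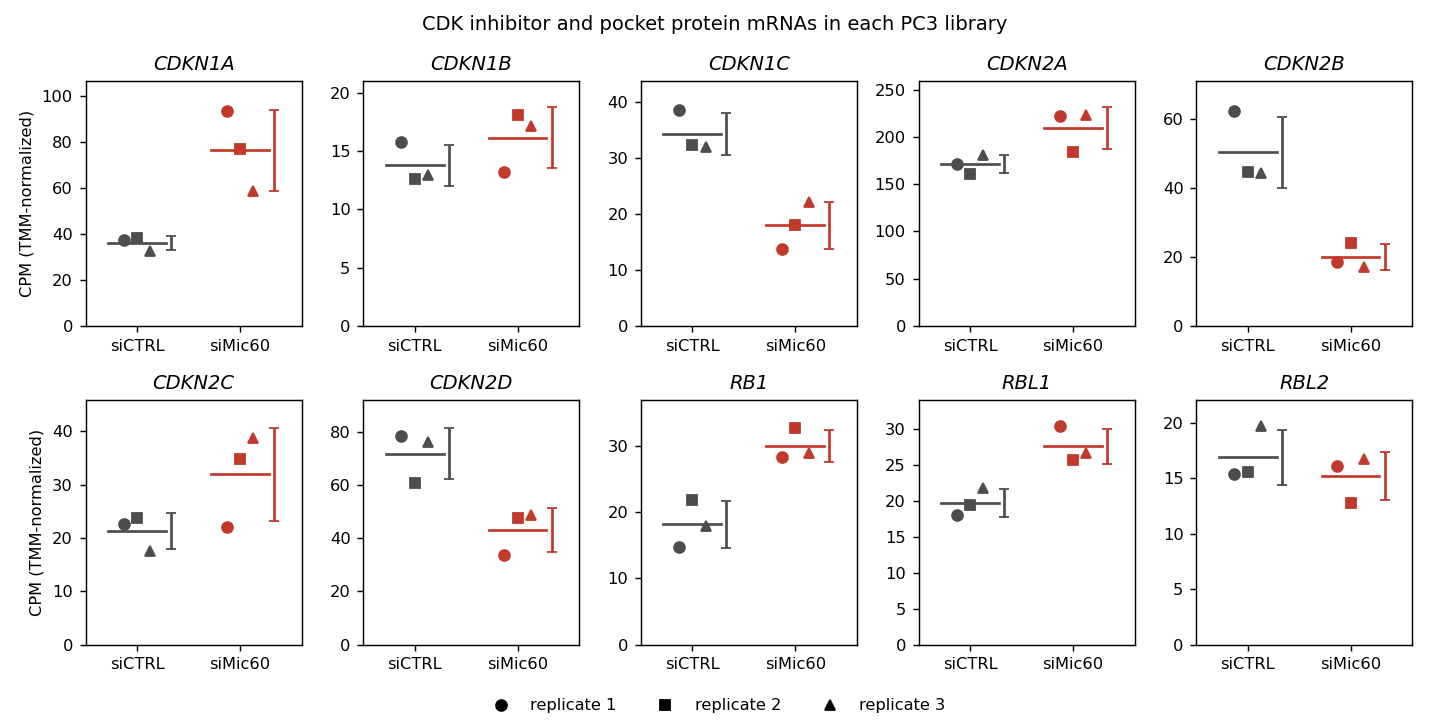
TMM-normalized CPM (vertical axis, from 0, scaled for each gene) of the 10 genes in the 3 siCTRL (grey) and 3 siMic60 (red) libraries, with marker shape for the replicate number, a line at the mean and a bar of 1 SD on each side of it. CDKN1A, RB1 and RBL1 are higher and CDKN1C, CDKN2B and CDKN2D lower in every siMic60 library, whereas CDKN1B, CDKN2C and RBL2 overlap.

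Among the CIP/KIP inhibitors, CDKN1A and CDKN1C moved in opposite directions. CDKN1A (ENSG00000124762) encodes p21, an inhibitor of CDK2 complexes that also binds the replication clamp PCNA. Its levels were 37.5, 38.3 and 32.4 CPM in siCTRL and 93.2, 76.9 and 58.5 CPM in siMic60 libraries. The lowest siMic60 library was above the highest siCTRL library, and siMic60 replicate 3 was the lowest of its group. The control mean of 36.1 ± 3.18 CPM compared with 76.2 ± 17.4 CPM after silencing (SD, 3 libraries per group), a 2.11-fold rise (95% interval 1.66 to 2.67, log2 fold change 1.07, standard error 0.16, edgeR adjusted p = 1.14e-04). Of all genes tested, 11.3% had a larger absolute log2 fold change.
CDKN1C (ENSG00000129757) encodes p57, a growth restrainer of embryonic tissues and an imprinted gene. It was at 38.6, 32.4 and 31.9 CPM in siCTRL and at 13.8, 18.1 and 22.1 CPM in siMic60 libraries, and the groups did not overlap. Its mean fell to 52.9% of the control level (log2 fold change −0.92, standard error 0.17, edgeR adjusted p = 7.98e-04).
CDKN1B (ENSG00000111276) encodes p27, whose amount is known to be set largely by degradation of the protein. Its levels were 15.8, 12.6 and 12.9 CPM in siCTRL and 13.2, 18.1 and 17.2 CPM in siMic60 libraries, and siMic60 replicate 1 lay among the control libraries. The fold was 1.17, with a 95% interval from 0.896 to 1.54 (edgeR adjusted p = 0.352). The interval holds both a moderate increase and a small decrease.

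The INK4 genes, which all encode inhibitors of CDK4 and CDK6 built of ankyrin repeats, also divided. CDKN2B (ENSG00000147883) encodes p15, known as a target of TGF-β signalling, and it had the largest decrease of the family. It was at 62.2, 44.7 and 44.3 CPM in siCTRL and at 18.6, 24.1 and 16.9 CPM in siMic60 libraries, with a wide gap between the groups. The mean went from 50.4 ± 10.3 to 19.9 ± 3.76 CPM (SD, n = 3 each), which is 39.5% of the control level (log2 fold change −1.34, standard error 0.17, edgeR adjusted p = 3.34e-05). Of all genes tested, 7.10% had a larger absolute change.
CDKN2D (ENSG00000129355), which encodes p19, was at 78.4, 60.8 and 76.4 CPM in siCTRL and at 33.7, 47.5 and 48.7 CPM in siMic60 libraries. The groups did not overlap, and the mean fell to 60.4% of the control level (log2 fold change −0.73, standard error 0.15, edgeR adjusted p = 0.00199).
CDKN2C (ENSG00000123080), which encodes p18, was at 22.7, 23.8 and 17.5 CPM in siCTRL and at 22.1, 34.9 and 38.7 CPM in siMic60 libraries. Here siMic60 replicate 1 was below 2 of the control libraries, so the groups overlapped. The fold was 1.5 (95% interval 1.13 to 2.01, log2 fold change 0.59, standard error 0.20, edgeR adjusted p = 0.0287). The call was lost without siCTRL replicate 3 (adjusted p = 0.115), without siMic60 replicate 2 (0.0911) and without siMic60 replicate 3 (0.150).
CDKN2A (ENSG00000147889) encodes p16 and, from another start and in another reading frame, ARF. Both kinds of transcript share their 3′ end, so the counts do not separate them. Its levels were the highest of the 10 genes, at 172, 161 and 181 CPM in siCTRL and 222, 184 and 223 CPM in siMic60 libraries. The groups did not overlap, although siMic60 replicate 2 lay only a little above the highest control. The fold of 1.22 (95% interval 1.03 to 1.46) had an unadjusted p = 0.0262 in edgeR's test across all genes and did not pass after adjustment (edgeR adjusted p = 0.0677). Without siMic60 replicate 2 it passed (log2 fold change 0.39, edgeR adjusted p = 0.0231).
On chromosome 9, the neighbouring MTAP gene, an enzyme of methionine salvage, rose 1.28-fold (edgeR adjusted p = 0.0421), while DMRTA1 did not pass and CDKN2B-AS1, the antisense RNA that overlaps CDKN2A and CDKN2B, was too low to test at 4 to 6 counts per library. MTAP lost its call under 9 of 13 other settings, among them library totals in place of TMM and each siCTRL library left out. The strand setting of the counting is not given, so reads of CDKN2B and of its antisense RNA cannot be told apart.

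The pocket protein genes showed a rise of RB1 and RBL1 and no called change of RBL2. RB1 (ENSG00000139687) encodes the retinoblastoma protein, which binds the activating E2F factors. It was at 14.7, 21.8 and 17.9 CPM in siCTRL and at 28.2, 32.7 and 28.8 CPM in siMic60 libraries, and the groups did not overlap. The mean was 18.1 ± 3.52 CPM before and 29.9 ± 2.42 CPM after silencing (SD, 3 libraries per group), a 1.65-fold rise (95% interval 1.30 to 2.11, log2 fold change 0.72, standard error 0.16, edgeR adjusted p = 0.00311). LPAR6, a receptor gene that lies inside RB1 on the opposite strand, had 155, 168 and 188 counts in siCTRL and 115, 121 and 216 counts in siMic60 libraries, and without a known strand setting its part in the RB1 counts was not tested.
RBL1 (ENSG00000080839) encodes p107, a partner of E2F4 and itself known as an E2F target, and it is the member whose promoter holds the E2F words marked above. It was at 18.0, 19.4 and 21.8 CPM in siCTRL and at 30.4, 25.7 and 26.6 CPM in siMic60 libraries. No siMic60 library reached down to the control range, and the fold was 1.39 (95% interval 1.12 to 1.74, log2 fold change 0.48, standard error 0.15, edgeR adjusted p = 0.0207). The call was lost without siCTRL replicate 1 (adjusted p = 0.0554), without siCTRL replicate 2 (0.0697) and without siMic60 replicate 1 (0.0732).
RBL2 (ENSG00000103479) encodes p130, the pocket protein of resting cells and of the repressive DREAM complex. Its levels were 15.3, 15.5 and 19.7 CPM in siCTRL and 16.1, 12.7 and 16.7 CPM in siMic60 libraries. The groups overlapped, and the fold of 0.900 had a 95% interval from 0.690 to 1.17 (edgeR adjusted p = 0.550). AKTIP, a gene on the opposite strand that overlaps RBL2 in part, had 62, 51 and 61 counts in siCTRL and 48, 71 and 71 counts in siMic60 libraries. Without a known strand setting its part in the RBL2 counts was not tested.

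**Figure D2:**
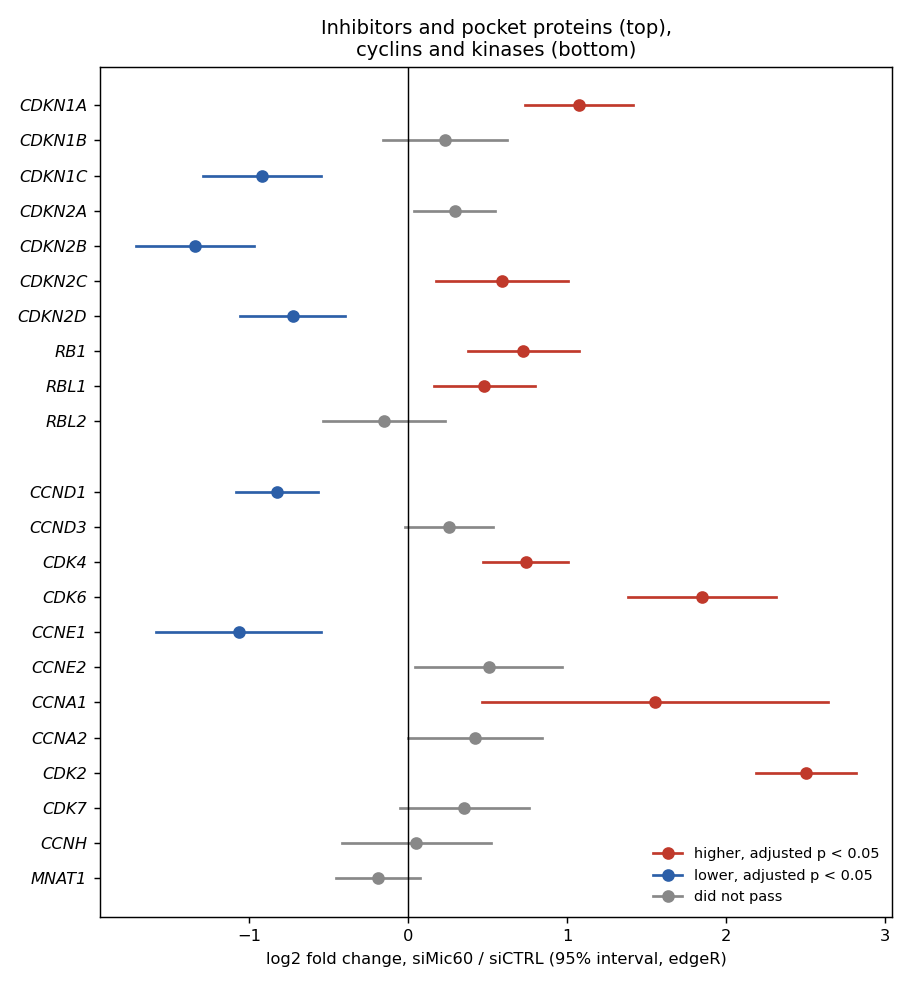
Log2 fold change of siMic60 over siCTRL cells (horizontal axis) with 95% intervals from edgeR, n = 3 libraries each, for the 10 inhibitor and pocket protein genes (top) and for the 12 tested cyclin and kinase genes (bottom). Red and blue genes passed an adjusted p under 0.05, and CDKN2A is grey although its unadjusted interval lies above 0. CDK2 and CDK6 have the largest increases shown, while CCND1 and CCNE1 fell.

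The genes of each class were also summed. The INK4 genes together were at 335, 290 and 319 CPM in siCTRL and at 297, 291 and 327 CPM in siMic60 libraries, which overlap. The CIP/KIP genes summed to 91.9, 83.3 and 77.3 CPM in siCTRL and to 120, 113 and 97.8 CPM in siMic60 libraries, with no overlap. The pocket protein genes summed to 48.1, 56.7 and 59.4 against 74.7, 71.1 and 72.2 CPM, again with no overlap. The make-up of each class differed between the groups. CDKN1A made up 40.8% to 45.9% of the CIP/KIP counts in siCTRL and 59.8% to 77.6% in siMic60 libraries, and CDKN1C went from 38.9% to 42.0% of them down to 11.5% to 22.6%. CDKN2A made up 51.2% to 56.7% of the INK4 counts in control and 63.4% to 74.9% in silenced cells. CDKN2B fell from a share of 13.9% to 18.6% to one of 5.18% to 8.30%. Among pocket protein counts, RBL2 held 27.4% to 33.2% in siCTRL and 17.9% to 23.2% in siMic60 libraries. No test was made of sums or shares.

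**Figure D3:**
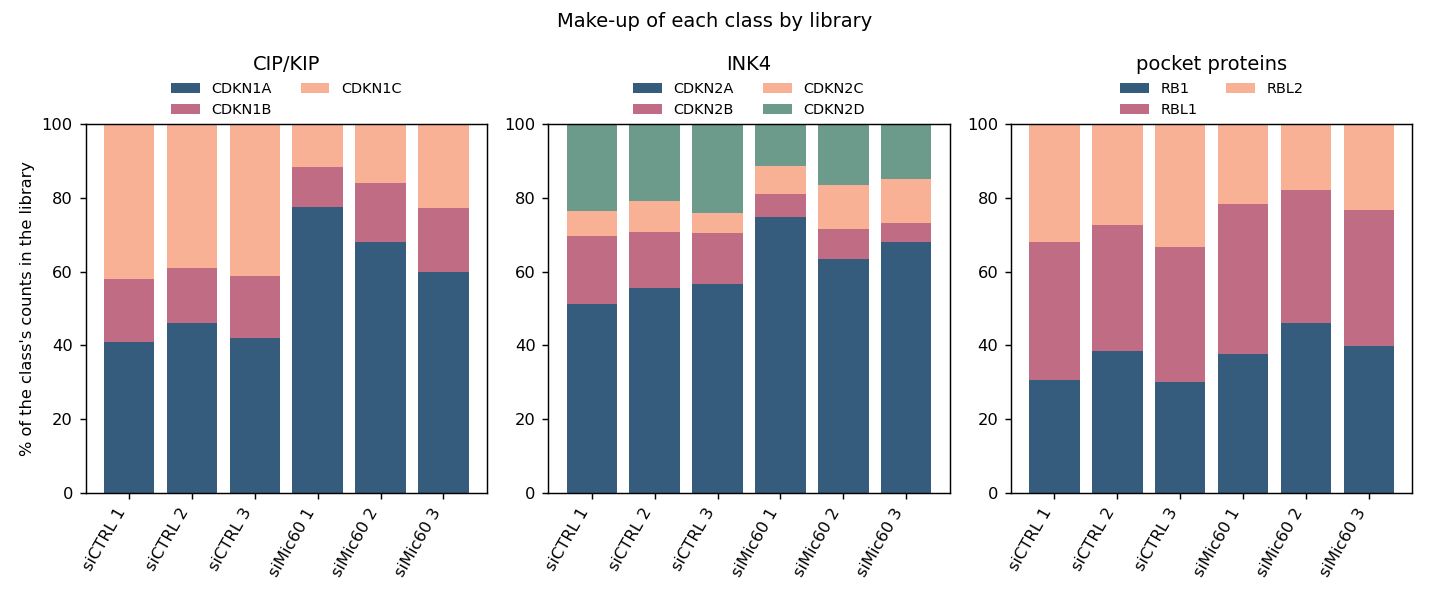
Share of each gene in the counts of its class (vertical axis, percent) in each of the 6 libraries, for CIP/KIP inhibitors, INK4 inhibitors and pocket proteins. The CDKN1A and CDKN2A shares are larger and the CDKN1C, CDKN2B and CDKN2D shares smaller in all 3 siMic60 libraries.

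The kinases that these inhibitors act on rose, while CCND1 and CCNE1, which encode G1 cyclins, fell. Of 12 tested genes among 13 cyclins and kinases that phosphorylate pocket proteins, 4 rose and 2 fell (median log2 fold change 0.39). Of all 14653 genes tested, 35.5% were called, 17.7% higher and 17.9% lower. The counts of this list and of those below were not tested against that share. CDK2, the partner of cyclins E and A, went from 36.6, 37.4 and 47.8 CPM in siCTRL to 268, 217 and 206 CPM in siMic60 libraries, without overlap. That is a 5.67-fold rise (log2 fold change 2.50, standard error 0.15, edgeR adjusted p = 1.04e-08). CDK6, a target of the INK4 proteins, rose 3.61-fold, from 13.5, 21.6 and 23.4 to 94.8, 55.1 and 62.1 CPM (edgeR adjusted p = 1.38e-05). CDK4, its close relative, rose 1.67-fold (edgeR adjusted p = 3.55e-04). CCND1, which encodes cyclin D1, fell from 1115, 954 and 921 to 608, 597 and 483 CPM, or to 56.5% of the control level (edgeR adjusted p = 1.06e-04). CCNE1, which encodes cyclin E1, fell to 47.8% of the control level, from 9.23, 7.38 and 10.4 to 4.45, 4.41 and 4.04 CPM (edgeR adjusted p = 0.00323). The fourth gene that rose, CCNA1, had only 4 to 27 counts per library.

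Downstream of the pocket proteins, E2F target genes rose more often than they fell. Of 16 E2F target genes of S phase, 11 rose, 1 fell and 4 did not pass, and the median log2 fold change was 0.53. The helicase subunit MCM7 rose 1.86-fold, TK1, which salvages thymidine, 3.19-fold, and RRM2, which makes deoxyribonucleotides, 2.10-fold. MCM3, another helicase subunit, fell to 76.7% of the control level (edgeR adjusted p = 0.0358). Without siMic60 replicate 1, 7 rose and none fell, and the call of MCM3 was also lost without siCTRL replicate 3, without siMic60 replicate 3 and with a replicate block. Averaged over these 16 genes, log2(CPM + 1) came to 5.18, 5.56 and 5.72 in siCTRL and 6.20, 6.10 and 5.87 in siMic60 libraries, with siCTRL replicate 1 the lowest of all. An E2F word stood in the promoter of 6 of the 13 of these genes with a RefSeq window, against 1.4% of all 27305 genes with one. Of these 6, MCM2, MCM7 and CDC6 rose, MCM3 fell, and MCM6 and POLA1 did not pass. The list was drawn from known E2F targets, so this share is not a result of the counts.
Of 10 E2F and DP factors, 3 rose and 1 fell (median log2 fold change 0.30). The share called here, and in the MuvB list below, was near the 35.5% of all genes tested. E2F7, an atypical repressor that is itself an E2F target, rose 3.27-fold (edgeR adjusted p = 2.05e-05). TFDP1, the dimer partner of most E2F factors, rose 1.80-fold, and E2F4, the repressor that RBL1 and RBL2 bind, rose 1.45-fold. E2F6, a repressor that does not bind pocket proteins, fell to 68.3% of the control level, a call lost without siMic60 replicate 1 or siMic60 replicate 3. The number of these factors that rose was 2 without siCTRL replicate 3 or siMic60 replicate 2. It was 4 without siMic60 replicate 3 or with no minimum count. Of 8 genes of the MuvB core and its partners, with which RBL1 and RBL2 form the DREAM complex, 3 rose and none fell (median log2 fold change 0.24). MYBL2, the partner that replaces the pocket protein in cycling cells, rose 2.10-fold, and the core subunits LIN52 and LIN54 rose 1.80-fold and 1.85-fold. The number of MuvB genes that rose was 2 without siCTRL replicate 1, siMic60 replicate 2 or siMic60 replicate 3. Of 10 corepressors of pocket proteins, the histone-binding RBBP7 rose 1.37-fold, and the chromatin remodeller SMARCA4 fell to 72.6% of the control level, a call lost without siMic60 replicate 3, and the median log2 fold change of the 10 was −0.18.

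**Figure D4:**
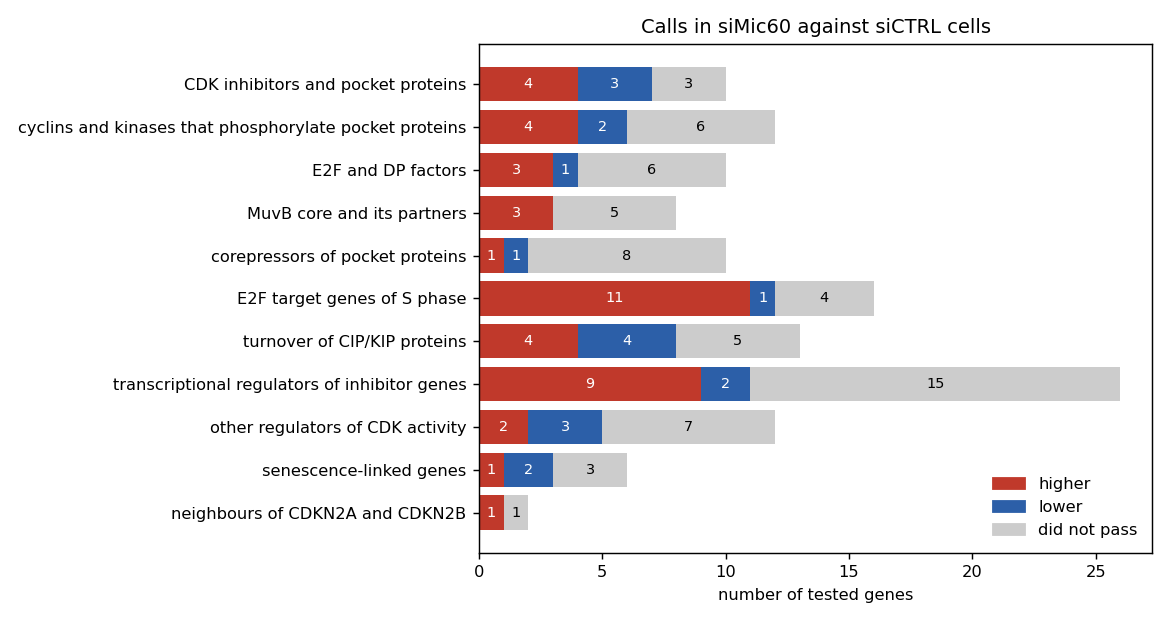
Number of tested genes (horizontal axis) that were higher (red), lower (blue) or did not pass (grey) after Mic60 silencing, from 3 libraries per group, for the 10 inhibitor and pocket protein genes and for 10 lists of related genes. The E2F target genes of S phase hold 11 higher and 1 lower gene of 16, and the inhibitor and pocket protein genes hold 4 higher and 3 lower of 10. Of all genes tested, 17.7% were higher and 17.9% lower.

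Genes listed for the turnover of CIP/KIP proteins, some of which act on other proteins, moved in both directions. Of 13, 4 rose and 4 fell, with a median log2 fold change of −0.03. DTL, the substrate receptor through which p21 is degraded on chromatin, rose 4.56-fold, from 14.7, 20.1 and 22.2 CPM in siCTRL to 104, 84.6 and 72.1 CPM in siMic60 libraries (edgeR adjusted p = 2.39e-07). CKS1B, the cofactor that SKP2 needs to bind p27, rose 3.13-fold, and CDC20, an activator of the anaphase-promoting complex, rose 1.79-fold. SKP2 itself rose 1.76-fold (edgeR adjusted p = 0.00242), and DDB1 fell to 78.1% of the control level (edgeR adjusted p = 0.0450). FBXW7, the receptor for cyclin E, fell to 62.9% of the control level, and CUL4A and CUL4B, scaffolds of the ligase that DTL serves, fell to 77.3% and 74.6%. The number that fell was 2 without siCTRL replicate 2, without siCTRL replicate 3 or without siMic60 replicate 3.
Of 26 tested among 28 transcriptional regulators of inhibitor genes, 9 rose, 2 fell and 15 did not pass (median log2 fold change 0.23). IRF1, which interferons induce, rose 2.45-fold, and KLF6, a zinc-finger factor known to activate CDKN1A, rose 2.04-fold. CBX7, the polycomb subunit known to repress CDKN2A, fell from 22.9 ± 6.25 to 8.13 ± 0.55 CPM (SD, n = 3 each), or to 35.6% of the control level (edgeR adjusted p = 7.07e-05). Other polycomb genes of the list did not fall with it. BMI1 and RNF2 rose 1.43-fold and 2.09-fold (edgeR adjusted p = 0.00710 and 0.00445), and CBX8, EZH2, SUZ12 and EED did not pass. SMAD2, a mediator of TGF-β signals, fell to 63.1% of the control level.
Of 12 other regulators of CDK activity, the inhibitory kinases PKMYT1 and WEE1 rose 2.41-fold and 1.89-fold, and 3 fell (median log2 fold change 0.05). These were CABLES1, a linker between CDKs and their kinases, at 40.1% of the control level, the activating phosphatase CDC25B at 60.5%, and HEXIM1, an inhibitor of the elongation kinase CDK9, at 69.1%. Of 6 senescence-linked genes, LMNB1, a lamin gene known to fall in senescent cells, rose 3.74-fold, with a control mean of 14.0 ± 2.76 CPM and a mean of 52.3 ± 4.62 CPM after silencing (SD, 3 libraries per group, edgeR adjusted p = 4.44e-07). The chromatin protein gene HMGB1 fell to 56.0% and the lysosomal enzyme gene FUCA1 to 74.8% of the control level, and GLB1, HMGB2 and MKI67 did not pass (median log2 fold change of the 6 genes 0.0020). Without siMic60 replicate 1, without siMic60 replicate 2 and with a replicate block, 1 of the 6 genes was lower.

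**Figure D5:**
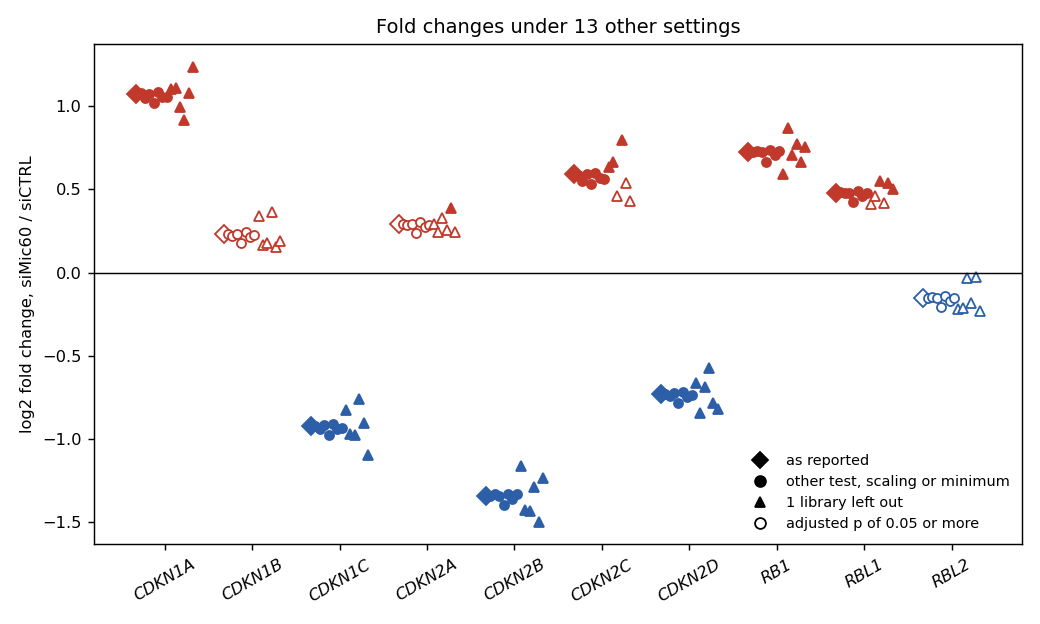
Log2 fold change of each of the 10 genes as reported (diamonds), with another test, scaling, minimum count or a replicate block (circles) and with 1 library left out (triangles), with open symbols where the adjusted p was 0.05 or more. CDKN1A, CDKN1C, CDKN2B, CDKN2D and RB1 passed under all 13 alternatives, while CDKN2C and RBL1 did not pass under 3 each.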

How the data were processed

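RNA of 3 siCTRL and 3 siMic60 PC3 samples was sequenced from QuantSeq 3′ libraries, and the authors deposited whole-number counts per Ensembl gene without normalization. Notes on processing by the submitters list hg19 (GRCh37), DESeq2 and RSEM 1.2.3 without roles, so the counts may be rounded estimates. The aligner, annotation, filters and strand setting were not given in the sources used here. Identifiers matched a symbol for 39501 of 57736 rows. The 14653 genes that reached 10 counts in 3 or more libraries were compared with edgeR 4.0.16 under R 4.3.3 (TMM, quasi-likelihood test, Benjamini-Hochberg adjustment over all genes, threshold 0.05). The 95% intervals use that test's standard error. The depth was 6644495 to 8779877 counts per library. On simulated counts for siMic60 against siCTRL (14425 genes), edgeR recovered 22 of 81 changes of 1.5-fold, 44 of 58 of 2-fold and all 58 of 5-fold, and called 5 of the 14228 genes left alone. Alternatives were DESeq2 1.42.0, limma-trend (limma 3.58.1, prior count 2), DESeq2's size factors, library totals, no filter or one at 50 counts, leaving out each library in turn, and the replicate number as a block. Besides the 10 genes and IMMT, the genes named are the called genes with the 3 smallest adjusted p in each direction of each list, apart from markers and those named in the text for a count or an overlap, and some genes that this rule names are not reported here. The genes followed and the lists were chosen with earlier results of these data known. The GC box word, CCNA1 and the ratios among the other observations were chosen after the values were seen. Promoter words were counted in Python 3.11.15. Coordinates are of the GRCh38.p14 promoter table and were not used with the counts.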

Additional observations from a re-analysis of the deposited data

How the results depend on the processing

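Under the 13 alternatives the family had 3 or 4 higher genes and 3 lower genes, and each alternative kept the number of genes called overall within 1.5 times (2081 to 2791 higher, 2067 to 3003 lower). Calls differed for 7 of 143 values of the 10 genes and IMMT, all with 1 library left out and given beside CDKN2A, CDKN2C and RBL1, and none reversed. Without siMic60 replicate 2 the count of higher genes stayed at 4 although CDKN2C lost its call and CDKN2A gained a call. Of 260 list counts, 23 moved by over 1.5 times, 9 of them the MTAP call. Library totals moved the median log2 fold change of all genes to −0.055. The class sums moved by less than 1 SD with library totals or DESeq2's size factors. With the replicate number as a block, 2384 genes were higher and 2382 lower, and the block changed no call among the 10 genes. The deviations of same-numbered samples correlated at r = −0.10, −0.031 and 0.029, and those of differently numbered samples at −0.11 to 0.12. No pairing by number was seen, but these values cannot show whether same-numbered samples were handled together. The simulation recovered 22 of 81 changes of 1.5-fold, but it left 14228 of its 14425 genes alone, whereas 35.5% of genes were called here. With so few altered genes its adjustment was stricter, so this recovery cannot be carried over to the members. The misses of CDKN1B and RBL2 do not show that these genes were unaltered, because the interval of each holds both increases and decreases.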

Other observations

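Ratios of counts within a library do not depend on scaling, and they set the inhibitor genes beside the genes of kinases that inhibitors bind. The INK4 counts include those of CDKN2A, which do not separate p16 from ARF. INK4 counts divided by CDK4 and CDK6 counts were 3.07, 2.53 and 3.02 in siCTRL and 1.15, 1.36 and 1.69 in siMic60 libraries, without overlap. The mean INK4 sum was 315 CPM in siCTRL and 305 CPM in siMic60 libraries, whereas that of CDK4 and CDK6 was 110 and 222 CPM. CIP/KIP counts divided by CDK2 counts were 2.51, 2.23 and 1.62 in siCTRL and 0.448, 0.521 and 0.475 in siMic60 libraries. CDKN1A alone went from 1.03, 1.02 and 0.678 counts for each CDK2 count to 0.347, 0.354 and 0.284, although CDKN1A itself rose. Within the family, CDKN2A counts divided by CDKN2B counts were 2.76, 3.61 and 4.09 in siCTRL and 12.0, 7.63 and 13.2 in siMic60 libraries. The ratio of CDKN1A to CDKN1C was 0.972, 1.18 and 1.02 against 6.76, 4.24 and 2.64. These are ratios of mRNA counts, chosen after the values were seen and given with no test, and protein was not measured.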
